A study of Mus musculus with 6 samples.

Results

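Small nucleolar RNAs (snoRNAs) were examined on 6 whole-transcriptome arrays of mouse lung fibroblasts with and without Atf4. A row of the value table was taken as a snoRNA row when the platform annotation paired it with exactly 1 gene whose symbol begins with Snord or Snora, and no row was dropped for a low value. This gave 67 rows of 65956, among 30638 rows that name exactly 1 gene. Of the 67, 48 rows of 45 symbols were C/D box snoRNAs (Snord) and 19 rows of 18 symbols were H/ACA box snoRNAs (Snora). The symbols Snora73b, Snord13, Snord118 and Snord58b had 2 rows each, so the 67 rows stood for 63 symbols.

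The cells were fibroblasts grown from the lungs of mice of both sexes and taken at passage 2. LF ATF4 WT carried Atf4wt/wt and LF ATF4 KO carried the deleted allele in both copies (Atf4D/D), with 3 arrays labelled as biological replicates in each group. Mice of both genotypes carried a Rosa26-driven CreERT2 recombinase that acts in all cell types rather than in fibroblasts alone, and the medium of both held 4-hydroxytamoxifen, which activates that recombinase. Lung tissue of several young adult mice was digested together and plated without a sort. The sources used here do not say whether the 3 replicates of a group came from separate digests, so each p-value reflects how far these 3 cultures vary, and part of that may be technical. Values are deposited log2 signals, and a difference is always KO minus WT on that log2 scale.

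SnoRNAs are short nuclear RNAs that guide the chemical marking of ribosomal RNA in the nucleolus. C/D box snoRNAs pair with the target and place ribose methylation through fibrillarin, working with Nop56, Nop58 and Snu13. H/ACA box snoRNAs direct the conversion of uridine to pseudouridine by dyskerin, with Nhp2, Nop10 and Gar1. In mammals most of them are cut out of introns of host genes, many of which encode ribosomal proteins or long noncoding RNAs, while a few such as U8 (Snord118) and U13 (Snord13) have transcription units of their own. A signal on these arrays cannot tell a mature snoRNA from the intron or host precursor that still contains it, and signals of different rows cannot be ranked as amounts of RNA.

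In the RefSeq table, 66 of the 67 rows found their gene, and 61 of these lay within the span of another gene (strand was not examined). The 5 that did not were both Snord13 rows, both Snord118 rows and Snord89. The hosts numbered 59, of which 47 were protein-coding and 12 were long noncoding RNAs, and 17 ribosomal protein genes held 20 of the rows. Of the 59 hosts, 35 had a row of their own that named no second gene, and these rows gave the host values below.

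Sequence was available for a few of the loci on which the results turned. The start window of Snhg18, the noncoding host of Snord123, and the stretch before the start of Ncl, the nucleolin gene that hosts Snora75, are shown because they are the hosts of the called snoRNAs. Both come from the RefSeq table of build GRCm38.p6, on the minus strand, at chr15:32244613-32244912 for Snhg18 and chr1:86359456-86359705 for Ncl. Capitals mark TGACG or its complement CGTCA, the core letters of the cyclic AMP response element that basic leucine zipper factors recognise. The Snora19 span, chr19:60774330-60774385 on the minus strand, is shown because its sequence was available. At 56 bases it is the shortest annotated H/ACA row (median 122), so it does not stand for the class. It was cut from the RefSeq hairpin of Mir3084-2, which contains it, and the capitals mark the ACA that gives the H/ACA class its name, which ended 3 bases before the end of the span.
Snhg18 start window: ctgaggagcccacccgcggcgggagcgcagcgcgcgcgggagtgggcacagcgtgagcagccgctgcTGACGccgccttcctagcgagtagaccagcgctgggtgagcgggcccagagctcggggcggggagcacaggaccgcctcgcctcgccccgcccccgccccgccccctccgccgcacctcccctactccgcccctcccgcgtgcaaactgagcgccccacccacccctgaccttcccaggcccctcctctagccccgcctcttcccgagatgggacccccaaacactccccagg
Ncl upstream: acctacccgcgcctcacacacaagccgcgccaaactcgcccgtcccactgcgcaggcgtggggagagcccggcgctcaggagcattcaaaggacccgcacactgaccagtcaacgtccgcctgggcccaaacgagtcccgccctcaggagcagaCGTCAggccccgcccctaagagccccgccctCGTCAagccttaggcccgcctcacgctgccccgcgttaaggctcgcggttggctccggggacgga
Snora19: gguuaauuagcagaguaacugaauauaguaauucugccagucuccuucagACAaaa

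The Snhg18 window held 1 match and the Ncl stretch 2. Among 49 start windows of 46 host genes (300 bases each, read on both strands), TGACG was present in 17, or 34.7%, beside 20.8% of 32851 windows of all genes. CACGTG, the E-box that Myc and related factors bind, was present in 11 host windows (22.4%), beside 7.15% of all windows. TGATGNAA, the letters of the composite element through which ATF4 acts on many stress genes, was present in 1 host window, that of Zbed3, or 2.04% beside 3.97%. Matches of different motifs may share bases and were counted separately, and a match is a description of letters, not of binding.

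C/D box rows were spread over a wide range of signal. The mean level over the 6 arrays ran from 3.66 to 15.17, with a median of 10.46, while all rows ran from 2.68 to 18.82 with a median of 4.90. Of the 48 rows, 45 lay at or above that median row, 24 reached 10 and 10 reached 14. H/ACA box rows ran from 4.19 to 11.09 with a median of 8.41, 18 of 19 lay at or above the median row, 5 reached 10 and none reached 14. Because probes differ in brightness, these figures describe the signal and not the relative abundance of the RNAs.

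The 5 brightest C/D rows were Snord87, Snord69, Snord49b, Snord35a and Snord55, with means of 15.17, 15.03, 14.93, 14.54 and 14.51. Snord87 lies within Snhg6 and Mcmdc2, Snord69 within Gnl3 and Snord35a within Rpl13a. Snord35a belongs to a group of Rpl13a intron snoRNAs that have been tied to lipotoxic stress in rodent cells. Snord87 read 15.22, 15.00 and 15.70 in WT and 15.43, 14.92 and 14.77 in KO. Snord69 gave 15.17, 15.07 and 15.41 in WT and 15.39, 14.45 and 14.69 in KO. Neither row separated the groups, since in both KO replicate 1 lay within or above the WT range. The 3 dimmest C/D rows were the dimmer Snord118 row at 3.66, Snord85 at 3.93 and Snord88c at 4.42, all under the median row. The other Snord118 row stood at 6.52, so the 2 rows named for U8, which is needed to mature the large-subunit ribosomal RNAs, gave different signals. The dimmer row is numbered on a chromosome other than 11, where RefSeq places Snord118, so it may not read U8.

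Among H/ACA rows the 5 brightest were Snora21 (11.09, within Rpl23), both Snora73b rows (11.03 and 10.52), Snora16a (10.62, within Snhg12) and Snora73a (10.35). Snora73a and Snora73b are the U17 RNAs, which take part in the cleavage of the ribosomal RNA precursor rather than in its modification, and both lie within Snhg3. The dimmest were Snora35 at 4.19, whose host Htr2c is a serotonin receptor gene of the brain, Snora20 at 6.94 and Snora62 at 7.22. Htr2c itself read 4.35 to 4.43 in WT and 4.36 to 4.44 in KO, so snoRNA and host were both dim in these fibroblasts.

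**Figure D1:**
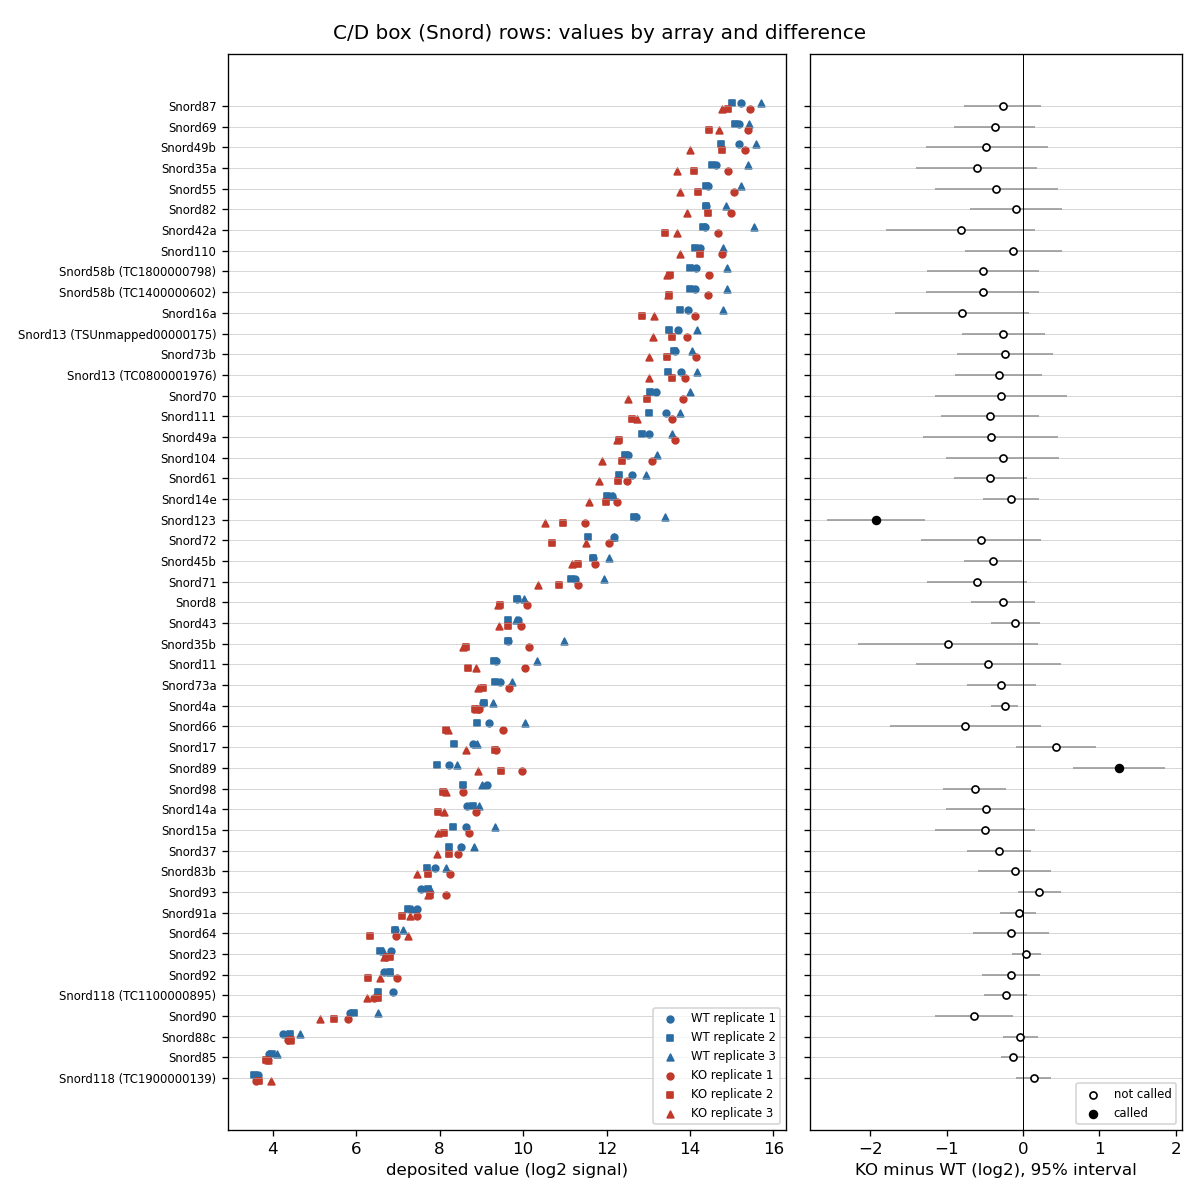
The 48 C/D box rows in order of mean level, with the deposited log2 signal of each array (left; colour gives the group, symbol the replicate) and the KO minus WT difference with its 95% interval (right; filled points were called). Snord123 lies furthest to the left at -1.93 and Snord89 furthest to the right at 1.26, and 43 of the 48 rows lie left of 0, where the median of all rows of the table stands.

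The first comparison asked which C/D box snoRNAs differed in level between fibroblasts with and without Atf4. Snord123 fell and Snord89 rose, and the other 46 rows did not pass. A row was called when limma's p, adjusted over all 65956 rows by Benjamini-Hochberg, was at most 0.05 and the fold was above 1.5. Over all rows 4.85% were called, 2.28% higher and 2.57% lower in KO, so 1 call in each direction among 48 rows was no more than the rate over all rows. At an unadjusted p under 0.05, 1 row was higher and 5 were lower. Over all 65956 rows 7774 were higher and 8522 lower at that p, so neither C/D count exceeded the rate over all rows.

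Snord123 lies within Snhg18 on chromosome 15 and showed the widest difference of the 67 rows. Its signal was 12.70, 12.66 and 13.40 in WT and 11.49, 10.96 and 10.53 in KO. Every KO array lay below every WT array, by more than the spread within either group. The group means were 12.92 ± 0.42 and 10.99 ± 0.48 (SD, n = 3), a difference of -1.93 (SE 0.28) or 3.80-fold, with a limma adjusted p of 0.00453. Leaving out any single array kept the call, with differences from -2.17 to -1.68.

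Its host behaved in the same direction. Snhg18 gave 8.60, 8.65 and 8.92 in WT and 7.55, 7.79 and 7.67 in KO, and it fell by 1.05 (SE 0.10, 2.07-fold, limma adjusted p = 0.000901). Again the groups did not overlap. Sema5a, a semaphorin gene whose RefSeq start window shares 250 bases with that of Snhg18 and which was looked up after the Snord123 values were known, read 10.34, 10.23 and 10.23 in WT and 7.91, 8.68 and 7.72 in KO. It fell by 2.16, or 4.47-fold (limma adjusted p = 0.00116). The snoRNA, its host and the neighbour thus all had lower signal on every KO array than on any WT array.

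Snord89 lies within no other gene of the RefSeq table and was the only C/D row called higher. It read 8.23, 7.93 and 8.42 in WT and 9.98, 9.46 and 8.91 in KO. All KO arrays lay above all WT arrays, but KO replicate 3 lay close to WT replicate 3, and the KO arrays were spread more widely than the WT arrays. The means were 8.19 ± 0.25 and 9.45 ± 0.54 (SD, n = 3), a rise of 1.26 (SE 0.26) or 2.39-fold, with a limma adjusted p of 0.0189. The call was lost without WT replicate 1 (adjusted p = 0.0552), WT replicate 2 (0.0729) or KO replicate 2 (0.0508), while the difference stayed between 0.99 and 1.53. Cnot11, the neighbouring gene, read 8.53 to 8.63 in WT and 8.61 to 8.77 in KO and was not called (limma adjusted p = 0.512).

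**Figure D2:**
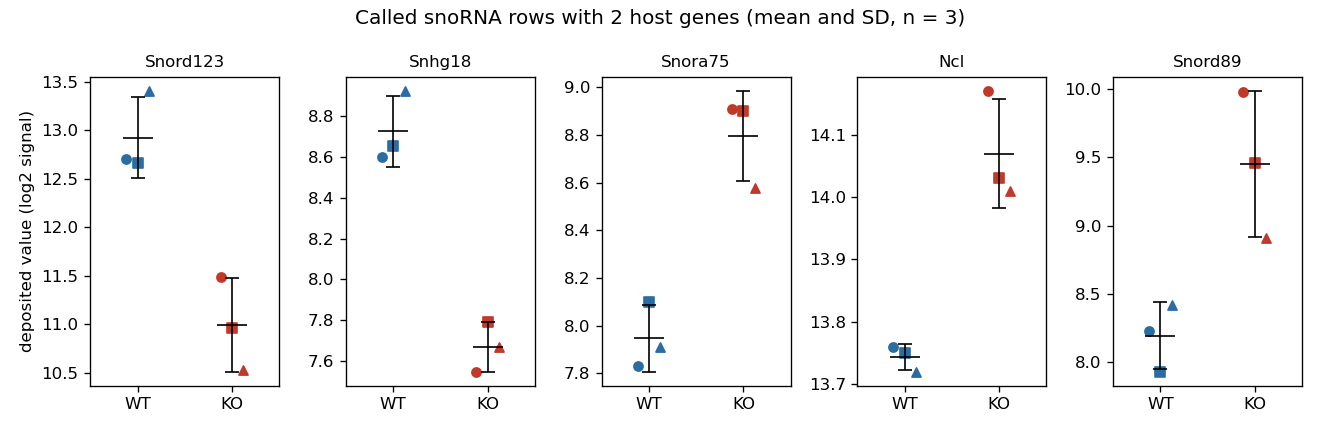
Deposited log2 signal of the 3 called snoRNA rows and of the host genes Snhg18 and Ncl in each array, in WT (blue) and KO (red), with the mean and SD (n = 3; circles, squares and triangles are replicates 1, 2 and 3). The y axes differ between panels; in all 5 panels the groups do not overlap, with Snord123 and Snhg18 lower in KO and the others higher.

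The next C/D rows by p value missed the threshold. Snord98, within Ccar1, gave 9.14, 8.56 and 9.01 in WT and 8.55, 8.09 and 8.16 in KO, a difference of -0.63 (SE 0.18) with a limma adjusted p of 0.0581. WT replicate 2 lay just above KO replicate 1. Ccar1, a coactivator of transcription, was at -0.40 (limma adjusted p = 0.00749), under the fold threshold. Snord4a, within Rpl23a, was tight in both groups, at 9.05, 9.07 and 9.27 in WT and 8.95, 8.84 and 8.87 in KO, and differed by -0.24 (limma adjusted p = 0.0811). The groups did not overlap in 6 of the 48 C/D rows (Snord123, Snord89, Snord98, Snord4a, Snord90 and Snord85), beside 30.1% of all rows, so separation was less frequent here than over the table. The standard error of a C/D row was wide, with a median of 0.23 beside 0.07 for all rows.

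Single rows apart, the KO mean lay below the WT mean in 43 of 48 C/D rows (89.6%, beside 50.4% of all rows and 42.2% of rows at 10 or more), with a median difference of -0.30 beside -0.00 over the table. The direction was not particular to these rows. Among rows at 10 or more, it held in all 20 further rows of RefSeq type snoRNA (median -0.20). It held in 80% of long noncoding RNA rows (-0.19), 71.1% of microRNA rows (-0.14) and 66.7% of 6 guide RNA rows (-0.36). In small nuclear RNA rows it held in only 23.4% (0.11). Centring the arrays on the bright C/D rows was a setting added for the array pattern described below. It raises every row by the same amount and puts this class near 0 by construction (median 0.02, with all rows at 0.32). The gap between the class and the table is fixed under such a shift, so this setting is no test of it. The 5 rows with the KO mean above were Snord89, Snord17 (0.43), Snord93 (0.21), the dimmer Snord118 row (0.14) and Snord23 (0.04), of which only Snord89 was called. Among rows that were not called, the lowest differences were those of Snord35b (-0.98, limma adjusted p = 0.293), Snord42a, within Rpl23a (-0.82, 0.291), and Snord16a, within Rpl4 (-0.80, 0.249). Snord35b read 9.65, 9.65 and 10.97 in WT and 10.13, 8.64 and 8.55 in KO. WT replicate 3 and KO replicate 1 stood well above the other arrays of their groups. The 2 Snord13 rows, U13, which directs an acetylation of the small-subunit ribosomal RNA, differed by -0.26 and -0.32. Snord14a and Snord14e, copies of U14, which also serves in precursor cleavage, differed by -0.49 and -0.16. None of these 4 rows was called. The 2 Snord58b rows gave nearly the same values on each array (r = 1.000 over the 6 arrays), so they are not independent of each other.

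That spread between arrays of a group was shared across the C/D rows. In all 24 C/D rows with a mean of 10 or more, WT replicate 3 was the highest of the WT arrays and KO replicate 1 the highest of the KO arrays. Over all rows at 10 or more, both held in 15.4%. Measured from the mean of its own group, the median bright C/D row stood at -0.14, -0.31 and 0.42 on WT replicates 1 to 3 and at 0.60, -0.10 and -0.44 on KO replicates 1 to 3. The distance between KO replicates 1 and 3 was therefore wider than the median difference between the genotypes. Over the 276 pairs of these 24 rows, the correlation of the deviations across the 6 arrays had a median of 0.92 and a lowest value of 0.36, which is given as a description because the rows share the same arrays.

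**Figure D3:**
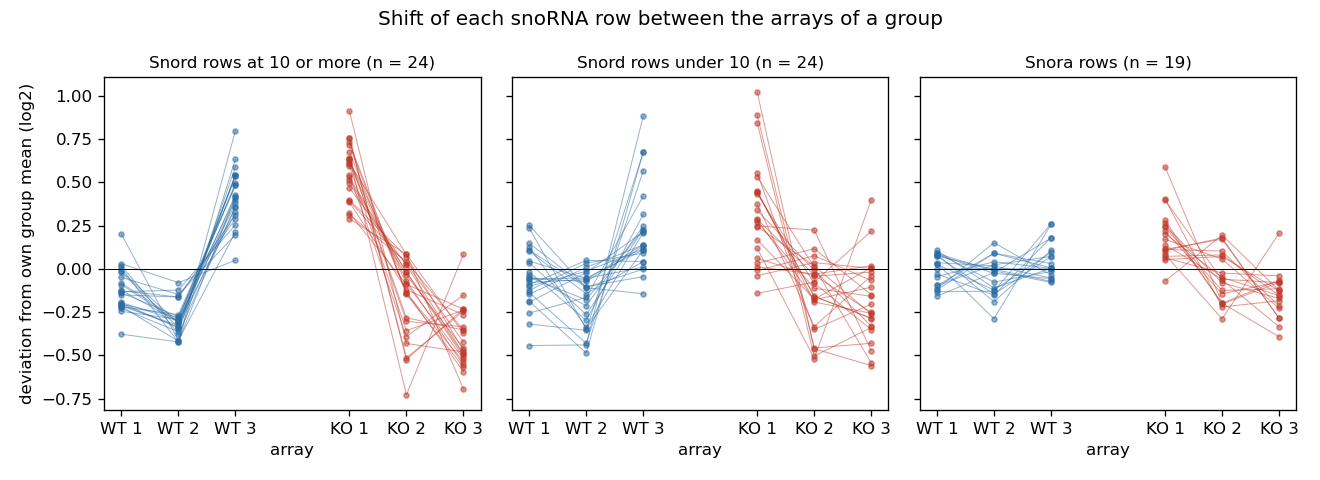
Deviation of each snoRNA row from the mean of its own group on each array (log2), with 1 line for each row and group, for C/D rows at 10 or more, C/D rows under 10 and H/ACA rows. In the left panel all 24 rows peak on WT replicate 3 and on KO replicate 1, and the lines of the H/ACA rows in the right panel are flatter.

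Fewer of the dim C/D rows and of the H/ACA rows had both marks. Among the 24 C/D rows under 10, WT replicate 3 was highest in 17 and KO replicate 1 in 18, with both in 14. Among the 19 H/ACA rows the counts were 7 and 13, with both in 6, and the median deviations were 0.03, -0.02 and 0.01 in WT and 0.17, -0.06 and -0.15 in KO. Across the 48 C/D rows the range of the deviations went with the level (Spearman rho 0.56) and hardly with the annotated length (rho -0.11 over 47 rows with a length, of 28 to 221 bases), and across the 19 H/ACA rows the same figures were 0.17 and 0.16. These are correlations across rows of the same arrays and carry no p.

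Among other small RNA rows, both marks held in 19 of 20 further rows at 10 or more whose RefSeq type is snoRNA but whose symbol starts otherwise, in 5 of 6 guide RNA rows and in 33.3% of 45 microRNA rows. In 209 spliceosomal and other small nuclear RNA rows, WT replicate 3 was highest in 90.4%, but KO replicate 1 was highest in only 18.2%, and their median deviations on the KO arrays were 0.06, 0.43 and -0.48. Both marks held in 25.7% of the 35 host genes and in 15.2% of 46 ribosomal protein genes. Over all rows the array medians were 4.87 to 4.91, but the normalisation makes the arrays alike, so these say nothing of the shift. Correlations over all rows were 0.997 to 0.998 within groups and 0.988 to 0.993 between them. What set the shift between arrays was not tested.

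The arrays with the shift moved the C/D summary. The median C/D difference was -0.54 without KO replicate 1, -0.16 without WT replicate 3 and -0.15 without KO replicate 3. Without KO replicate 1, 5 C/D rows were called lower in place of 1, namely Snord123 (-2.17), Snord49a (-0.88), Snord98 (-0.78), Snord14a (-0.77) and Snord69 (-0.64), all from limma with adjustment over all rows. Without any of the other 5 arrays, 1 or 2 were called lower.

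**Figure D4:**
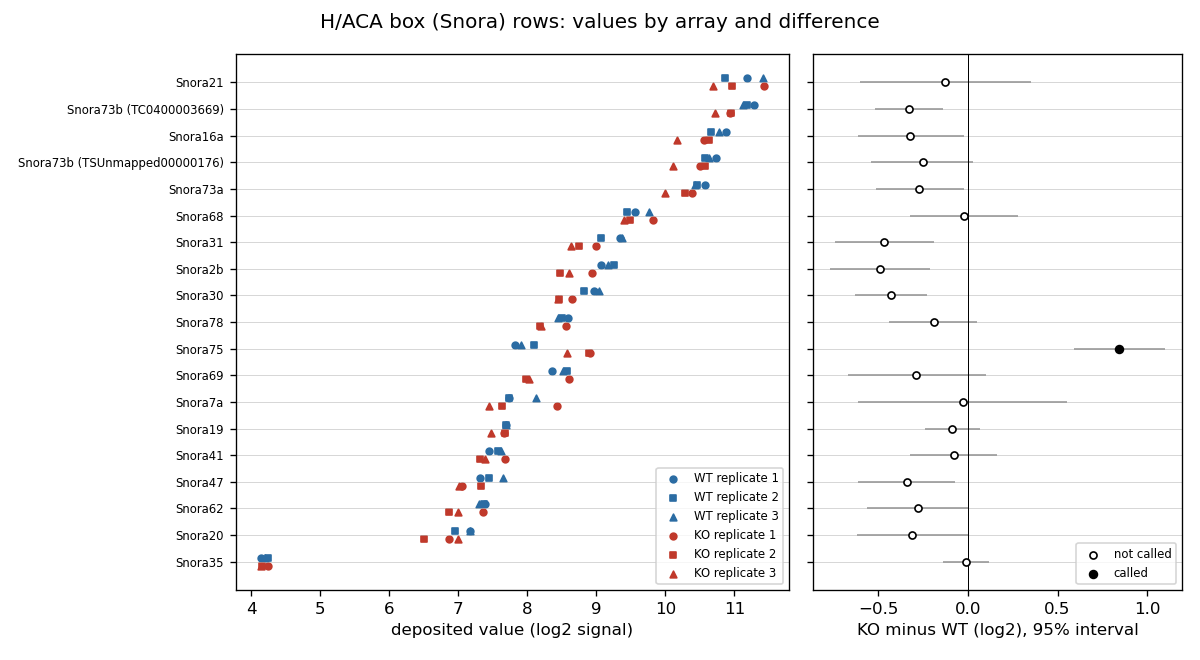
The 19 H/ACA box rows in order of mean level, with the deposited log2 signal of each array (left; colour gives the group, symbol the replicate) and the KO minus WT difference with its 95% interval (right; filled points were called). Snora75 stands alone on the right at 0.84, and the 18 other rows lie between -0.49 and -0.01.

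The second comparison asked the same of the H/ACA box snoRNAs. Snora75 rose, no row was called lower by limma (7 had an unadjusted p under 0.05 in that direction), and 18 rows were not called. Such a p with the lower mean in KO was found in 8522 of 65956 rows of the whole table. Over all rows 2.28% were called higher and 2.57% lower in KO, so 1 call among 19 rows is not a result about the class. By limma's treat against the same fold the call of Snora75 was lost (adjusted p = 0.953), which left 0 H/ACA rows called higher. The lower count was 0 too, but treat is stricter than the first fit and could not have raised it. A further 4 rows passed the adjusted p but not the fold, all with the lower mean in KO: Snora30, Snora2b, Snora31 and the brighter Snora73b row. Of all rows, 13% passed the adjusted p alone, and 6.54% did so with the lower mean in KO.

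Snora75, also known as U23, is cut from an intron of Ncl. It read 7.83, 8.10 and 7.91 in WT and 8.91, 8.90 and 8.58 in KO. The groups lay clearly apart and each was tight. The means were 7.95 ± 0.14 and 8.79 ± 0.19 (SD, n = 3), a rise of 0.84 (SE 0.11) or 1.80-fold with a limma adjusted p of 0.00301. The call held without any single array, with differences of 0.79 to 0.95.

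Ncl encodes nucleolin, an abundant nucleolar protein of ribosome assembly. It gave 13.76, 13.75 and 13.72 in WT and 14.17, 14.03 and 14.01 in KO, a difference of 0.33 (limma adjusted p = 0.0131) that did not reach the fold threshold. Snord82, a C/D snoRNA within the same gene, read 14.39, 14.38 and 14.86 in WT and 14.98, 14.43 and 13.94 in KO, a difference of -0.09. It showed the array pattern of the bright C/D rows and no separation. The change of Snora75 exceeded that of Snord82 by 0.94, with an exact permutation p of 0.1 (two-sided), the smallest that 3 arrays against 3 can give, and 0.9 after adjustment over the 9 pairs of rows that share a host.

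Snora30, within Srcap, was at 8.97, 8.82 and 9.04 in WT and 8.65, 8.46 and 8.44 in KO (-0.43, limma adjusted p = 0.0169). Snora2b, within Kansl2, was at 9.07, 9.25 and 9.17 in WT and 8.94, 8.48 and 8.61 in KO (-0.49, limma adjusted p = 0.0378). Snora31, within Tpt1, was at 9.35, 9.07 and 9.37 in WT and 9.00, 8.75 and 8.64 in KO (-0.47, limma adjusted p = 0.0396). In each of these 3 rows the groups did not overlap, though the gap was narrow in Snora31 and Snora2b. The brighter Snora73b row differed by -0.33 (limma adjusted p = 0.0412), the other by -0.25 (0.263) and Snora73a by -0.27 (0.165). The groups did not overlap in 9 of the 19 H/ACA rows, beside 30.1% of all rows.

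Snora75 was also the only H/ACA row with the higher mean in KO. The lower mean in KO was also found in all 20 further rows of RefSeq type snoRNA at 10 or more. In the other 18 of 19 (94.7%, beside 50.4% of all rows) the KO mean lay below, and the class median was -0.27, which stayed negative with any single array left out (-0.32 to -0.15). With arrays centred on the bright C/D rows it was 0.05 while the median of all rows was 0.32. That shift is the same for every row and cannot alter the gap between class and table. The differences apart from Snora75 were small and even, from -0.49 to -0.01, with a median standard error of 0.12. Rows near 0 included Snora35 (-0.01), Snora68 (-0.02) and Snora7a within Rpl32 (-0.03). The last of these had a wide interval, from -0.61 to 0.55. Snora19, whose sequence is printed above, gave 7.69 on all 3 WT arrays and 7.66, 7.68 and 7.48 in KO. A row outside the members that names Snora19 together with Mir3084 gave the same values on every array, so the 2 rows are not independent.

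The host genes were set beside their snoRNAs. Of 35 hosts, Nop58 and Snx5 rose, Snhg18 fell and 32 were not called, and the median difference was 0.01. Nop58 encodes a core protein of the C/D particle itself and hosts Snord70 and Snord11. It read 12.41, 12.50 and 12.27 in WT and 13.12, 13.19 and 13.22 in KO, a rise of 0.78 (limma adjusted p = 0.000831). Its snoRNAs were not called, at -0.29 for Snord70 and -0.46 for Snord11, and both lay furthest above their group mean on WT replicate 3 and KO replicate 1. Snx5, a sorting nexin, rose by 0.67 (limma adjusted p = 0.005), and Snord17 within it was at 0.43 (limma adjusted p = 0.3).

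Across 38 pairs of a snoRNA row and a host, 16 had the same sign. Pearson's r of the differences was 0.52 and Spearman's rho 0.15, and without Snord123 they were 0.26 and 0.08, so the first value leaned on a single pair. Pairs share hosts and arrays and the figures are descriptive. They were formed by span without regard to strand, so some may join a snoRNA to a gene it is not cut from. The Hspa8 row set beside Snord14e is numbered on chromosome 6, while Snord14e lies on chromosome 9. Pairs of snoRNA rows within the same host were alike from array to array: in 8 of the 9 pairs the correlation over the 6 arrays was 0.87 to 0.96, and it was 0.04 for Snora75 and Snord82 in Ncl. Measured from the group means, which leaves out the genotype difference, the correlation of the deviations was 0.85 to 0.97 in the 8 pairs and 0.55 in Ncl. Over all pairs of bright C/D rows, whatever their host, its median was 0.92, so this likeness was not particular to a shared host. Several of the 8 pairs join U17 rows within Snhg3. The Ncl pair was the only pair of an H/ACA row with a C/D row, so host and class cannot be told apart there. No pair could pass 0.05 in the exact permutation test, whose smallest p here is 0.1.

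**Figure D5:**
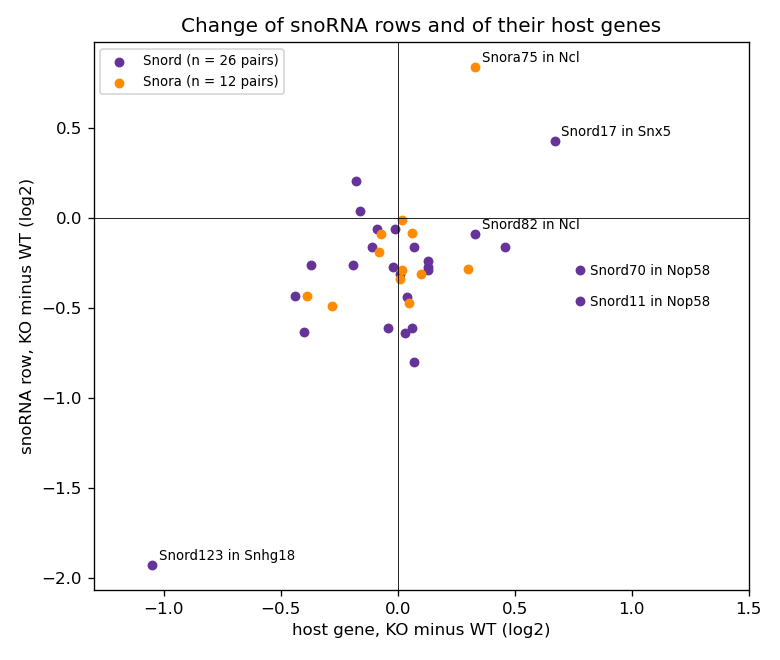
KO minus WT difference of each snoRNA row (y axis, log2) against that of its host gene (x axis, log2), for 26 C/D and 12 H/ACA pairs. Snord123 and Snhg18 lie alone at the lower left, and Snord70 and Snord11 lie below 0 although their host Nop58 lies furthest to the right.

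The proteins that work with snoRNAs, and genes tied to the nucleolus, were followed from lists. Of the 4 C/D core proteins 2 had a row of their own, and of these Nop58 rose while fibrillarin (Fbl) was at 0.31 (limma adjusted p = 0.0105), under the fold threshold. None of the 4 H/ACA core genes was called by limma, and 3 had an unadjusted p under 0.05. These were Nhp2 (0.49), dyskerin (Dkc1, 0.42) and Nop10 (0.32), which passed the adjusted p alone, and Gar1 was at 0.09 (limma adjusted p = 0.384). Of 11 assembly factors only Ruvbl2, an ATPase of the complex that builds the particles, rose (0.60, limma adjusted p = 0.000867). Of 14 genes listed for RNA polymerase I and the nucleolus, only Myc was called, as higher (0.67, limma adjusted p = 0.00147). Myc is a transcription factor placed on that list, not a part of the polymerase or the nucleolus, and no other gene of the list was called. The medians of these lists were 0.54, 0.37, 0.26 and 0.26, beside -0.00 over the table, and no gene of them was called lower by limma. Pih1d1 (-0.22, limma adjusted p = 0.0339) and Ubtf (-0.34, 0.00792) passed the adjusted p but not the fold, with the lower mean in KO. Of all rows, 13% passed the adjusted p, whatever the fold. The genes called higher thus numbered 3 in these lists together. The fold of Ruvbl2, 1.51, lay at the limit, and it was not called without WT replicate 2 or without KO replicate 1 (0.57 each) or with arrays centred on rows naming 1 gene (0.58).

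Among 9 small nucleolar RNA host genes with a row of their own, Snhg18 and Snhg5 fell and 7 were not called. Snhg5 read 11.80, 11.59 and 11.94 in WT and 11.28, 11.06 and 11.01 in KO (-0.66, limma adjusted p = 0.00803), a call lost without WT replicate 3 (-0.57), and no snoRNA row taken here lies within it. Of 46 ribosomal protein genes none was called by limma, 23 had an unadjusted p under 0.05 with the higher mean in KO, and the median was 0.15. Such a p with the higher mean in KO was found in 7774 of 65956 rows, and in 2130 of 6644 rows at 10 or more. The C/D and H/ACA rows thus had medians below 0 while the median of the protein lists, ribosomal protein genes included, lay above 0, with the median of all rows at -0.00.

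Atf4 read 8.67 to 8.95 in WT and 7.48 to 7.73 in KO and fell by 1.22 (limma adjusted p = 0.000497). The cultures also differed in markers of other cells. All 13 leukocyte markers measured of 14 were higher in KO, with a median of 2.66 and a summed level of 17.02 to 17.70 in WT and 19.11 to 19.34 in KO. Of 10 mesothelial markers 9 were lower and Krt19 higher, with a summed level of 15.04 to 15.54 in WT and 10.14 to 11.35 in KO. Of 8 fibroblast markers 5 were lower, among them Col3a1 (-2.55), while Vim (0.21) and Dcn (0.18) were not called. Of 5 epithelial markers Cdh1 was higher in KO (1.12) and 4 were not called, and the summed level was 7.11 to 7.19 in WT and 7.43 to 7.65 in KO. Of 5 endothelial markers Pecam1 was higher (0.62, a call lost when WT replicate 1 or 2 or KO replicate 2 or 3 was left out) and 4 were not called, with a summed level of 7.86 to 8.26 in WT and 8.49 to 9.08 in KO. In RNA from whole cultures, fewer cells of a type and less RNA in each cell cannot be told apart, and the part of these markers in the snoRNA differences was not tested.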

How the data were processed

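Per the labels and the study's methods, total RNA was amplified with poly(T) and random primers, and the biotin-tagged product was read on Clariom D arrays for mouse. The authors normalised the arrays by RMA (background correction, quantile normalisation and probe summary) in the Transcriptome Analysis Console with default parameters, and deposited log2 signals. Quantile normalisation makes the array distributions alike, so a shift shared by all RNAs would be removed. The genome build and annotation version behind the rows are not given in the sources used here. Arrays carry no read depth, and 3 arrays in each group limit the precision.

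The deposited log2 values were fitted with limma 3.58.1 in R 4.3.3 (lmFit and eBayes, no covariate, two-sided) over all 65956 rows, with Benjamini-Hochberg adjustment over all of them. Calls needed both an adjusted p no higher than 0.05 and a fold above 1.5, which are the limits of the methods. Symbols came from the platform annotation, and 42 rows that name a snoRNA together with other genes were left out of the members. Hosts were genes of the RefSeq table (GRCm38.p6) whose span holds the snoRNA. The rows named were the called rows or the 4 with the smallest p in each class, the 5 brightest and 3 dimmest of each class, their hosts and the leading genes of each list. Other snoRNA rows, hosts and Sema5a were named after their values were seen. The members and lists were chosen with earlier results of these data known.

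Data were simulated with the real levels and spread and with noise independent between rows (200 of 65956 rows changed). By limma's adjusted p of at most 0.05 alone, without the fold limit, the fit recovered 55.2% of rows changed by 1.5-fold. It recovered 83.6% of those changed by 2-fold and 95.5% of those changed by 4-fold. The C/D rows had a wider median standard error (0.23 beside 0.07 for all rows) and a shift shared within arrays. These shares therefore do not carry over to them. Alternatives were a per-row t-test, a trended robust fit, other row filters, no fold limit, treat, other scalings, array weights, a replicate block and leaving out each array.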

Additional observations from a re-analysis of the deposited data

Results flagged for a closer look

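A row that names both Nop56 and Snord57 was outside the comparisons because it names more than 1 gene, and it was called higher in KO. It read 10.94, 10.86 and 10.90 in WT and 11.81, 11.52 and 11.40 in KO, a difference of 0.68 (limma adjusted p = 0.00608). Nop56 encodes a core protein of the C/D particle and hosts Snord57, and the row cannot tell the 2 apart. It was the only row called among 42 rows of this kind, whose median difference was 0.09. None of the 42 was called lower by limma, and 2 had an unadjusted p under 0.05 in that direction, beside 8522 of 65956 rows.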

How the results depend on the processing

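Of the 3 snoRNA calls, all were made by limma with a trended robust prior, with array weights, by cyclic loess, by centring on rows that name 1 gene and with 1 row per symbol. None was made by the t-test (adjusted p = 0.0777 for Snord123, 0.144 for Snord89 and 0.057 for Snora75) or by limma's treat against 1.5-fold (0.0599, 0.7 and 0.953), so that higher and lower counts were 0 in both classes. Snord98 joined the lower C/D rows, making 2, when rows under the median row were left out (limma adjusted p = 0.0388) and among rows naming exactly 1 gene (0.0488).

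The labels do not say whether arrays of the same replicate number form a pair. Deviations of same-numbered arrays correlated at -0.04, -0.01 and -0.22 over all rows, so no positive link was seen there. Over the snoRNA rows, which share the array shift, the values were -0.58, 0.32 and -0.61. With so few arrays these figures cannot settle whether the samples were paired. With the number as a replicate block, Snord98 was called as well (2 C/D rows lower, limma adjusted p = 0.0167), and the other counts of calls for snoRNAs, hosts and snoRNP genes stayed within 1.5 times.

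By adjusted p alone, 4 H/ACA rows, 5 hosts and 2 snoRNP and nucleolar genes were lower, and 5 hosts and 18 snoRNP and nucleolar genes higher. The t-test called 1 host higher. By treat, hosts were 0 in both directions and snoRNP genes 0. Arrays centred on the 24 bright C/D rows, a setting chosen after seeing the data, raised all rows by 0.32 in the median and loaded the array spread of those rows onto every row. The differences of Nop58 (1.10), Myc (0.99) and Ruvbl2 (0.92) were then wider but not called, with 0 hosts either way and 0 snoRNP genes higher, and the H/ACA median was 0.05. It kept Snord123 (-1.61), Snord89 (1.58) and Snora75 (1.16, limma adjusted p = 0.0477).

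Leaving out each array gave 0 to 1 C/D rows higher, 1 to 5 lower, 0 to 1 H/ACA rows lower, and an H/ACA median of -0.32 to -0.15. Over the whole table such fits called 2663 to 3375 of 65956 rows in either direction. The H/ACA row called lower without KO replicate 1 was Snora2b (-0.62). The causes were not tested. No detection call against background was used, so rows as dim as Snord85 and Snora35 may hold little but background.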

Other observations

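Among the rows that name several genes, 3 name a Snord116 copy together with Gm26504 and Ipw, from the imprinted cluster active in neurons. They share identical values on every array, at 4.64, 4.71 and 4.72 in WT and 4.72, 5.45 and 4.60 in KO, and so are 1 measurement. KO replicate 2 stood above the other 5 arrays, and the difference of 0.24 did not separate the groups.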
